A study of Mus musculus with 6 samples.

Results

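The liver endothelial marker genes described here are 31 genes listed by name, all found by symbol among the 22599 genes of the deposited tables. They fall into 12 genes typical of sinusoidal endothelial cells, 15 genes shared by endothelial cells of most vessels, and 4 genes associated in liver with larger vessels (Vwf, Plvap, Cd34 and Emcn). The 6 libraries were made from mouse liver by bulk RNA sequencing. Per the titles and the labels' protocols, 3 came from NcoR1fl/fl mice (flox, genotype label WT) and 3 from NcoR1ΔHep mice (genotype label knockdown NcoR1), which by the series title lack NcoR1 in the liver. NcoR1 is a corepressor of nuclear receptors. All titles give 0 h of ischemia-reperfusion (IR), and the treatment label of all 6 names ischemia-reperfusion of the liver, so the labels leave unclear whether these livers were operated on. The sources used here do not give the driver of the deletion, the strain, the age or the sex, nor whether each library is a separate mouse. The p-values therefore measure the spread between these libraries, which may be technical.

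Sinusoidal endothelial cells line the capillaries of the liver lobule. They are fenestrated, lack a continuous basement membrane, and clear waste molecules from blood through scavenger and lectin receptors. Endothelial cells of all vessels share junction proteins, receptors for VEGF and angiopoietins, and transcription factors of the ETS and SOX families. In bulk tissue, fewer endothelial cells and less RNA per endothelial cell cannot be told apart, and this holds for every value below.

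The libraries held 36975231 to 38470468 counts, of which albumin (Alb) took 6.56% to 8.85%. The 31 endothelial genes together took 0.0398% to 0.113% of the counts, or 14849 to 42729 counts a library. Ncor1 itself averaged 7.07 ± 0.570 FPKM in the flox libraries and 5.63 ± 0.886 FPKM in the others (SD, n = 3 each). That 20.3% difference did not pass the test (edgeR adjusted p = 0.931), and a count per gene does not show which exons were read, so the genotypes rest on the labels. NcoR1ΔHep 1 stood apart in sex-linked transcripts, with 17138 counts of Xist against 6 to 18 in the other libraries and 12 counts of Ddx3y against 2008 to 6275. The counts over the set, the subset medians and the values of several genes are also given without it.

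Promoter sequences show what the transcription machinery of these genes could read, and 5 are printed. Clec4g was the most abundant gene of the set. Stab1 and Stab2 encode related scavenger receptors, and Kdr and Robo4 are endothelial receptors. Within each of these pairs, picked after their values were seen, the genes differed in the ratio of NcoR1ΔHep 1 to flox 1 in FPKM. It was 0.918 for Stab1 and 0.502 for Stab2, and 0.354 for Kdr and 1.11 for Robo4. Each promoter runs 5′ to 3′ from 250 bases before to 50 bases after the RefSeq start. Capitals mark AGGAAG or CGGAAG, which contain the core bound by ETS factors such as ERG, or their reverse complements; marked words may overlap each other.
Clec4g promoter, GRCm38.p6 chr8:3720602-3720901, minus strand: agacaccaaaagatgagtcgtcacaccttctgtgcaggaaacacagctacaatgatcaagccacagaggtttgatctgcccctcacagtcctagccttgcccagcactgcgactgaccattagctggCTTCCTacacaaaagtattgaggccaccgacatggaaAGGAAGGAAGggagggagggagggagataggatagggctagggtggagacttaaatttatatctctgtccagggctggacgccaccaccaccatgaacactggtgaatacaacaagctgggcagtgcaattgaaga
Stab1 promoter, GRCm38.p6 chr14:31168592-31168891, minus strand: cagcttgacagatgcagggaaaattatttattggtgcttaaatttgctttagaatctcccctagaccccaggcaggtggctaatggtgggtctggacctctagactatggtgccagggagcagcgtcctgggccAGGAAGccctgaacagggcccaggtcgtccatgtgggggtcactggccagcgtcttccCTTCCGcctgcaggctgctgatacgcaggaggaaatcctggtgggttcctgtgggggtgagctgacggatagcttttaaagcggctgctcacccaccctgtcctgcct
Stab2 promoter, GRCm38.p6 chr10:87007893-87008192, minus strand: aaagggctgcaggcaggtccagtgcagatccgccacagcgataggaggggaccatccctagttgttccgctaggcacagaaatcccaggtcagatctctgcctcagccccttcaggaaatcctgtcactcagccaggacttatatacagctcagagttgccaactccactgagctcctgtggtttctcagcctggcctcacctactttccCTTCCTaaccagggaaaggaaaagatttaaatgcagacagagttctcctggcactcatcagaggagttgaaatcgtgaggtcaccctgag
Kdr promoter, GRCm38.p6 chr5:75978406-75978705, minus strand: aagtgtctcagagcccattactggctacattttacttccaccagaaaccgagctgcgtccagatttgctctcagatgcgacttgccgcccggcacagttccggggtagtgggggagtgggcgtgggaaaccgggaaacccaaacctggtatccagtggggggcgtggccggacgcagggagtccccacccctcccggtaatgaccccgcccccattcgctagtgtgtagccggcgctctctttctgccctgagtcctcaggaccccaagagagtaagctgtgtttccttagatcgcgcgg
Robo4 promoter, GRCm38.p6 chr9:37401722-37402021, plus strand: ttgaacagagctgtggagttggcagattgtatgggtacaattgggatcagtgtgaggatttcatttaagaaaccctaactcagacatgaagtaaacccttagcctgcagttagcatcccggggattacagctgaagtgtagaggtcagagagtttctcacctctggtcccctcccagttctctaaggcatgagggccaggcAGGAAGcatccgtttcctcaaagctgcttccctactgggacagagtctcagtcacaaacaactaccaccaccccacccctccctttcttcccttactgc

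The RefSeq table held 23 promoters of 19 of the 31 genes. An ETS-type word was present in 14 of these 23 promoters (60.9%), against 46.5% of all 32851 promoters of the same length. Clec4g had 3 matches, Stab1 2, Stab2 and Robo4 1 each, and Kdr 0. These counts cover only the marked words. The shorter core inside them, GGAA or its reverse complement TTCC, also stands unmarked, for example in the Kdr promoter. Whether such matches go with the ratios of NcoR1ΔHep 1 to flox 1 was not tested. The GATA-type word AGATAA, searched on both strands because Gata4 is in the set, was in 2 of the 23 promoters (8.70%) and in 11.2% of all promoters. A word match is a description of the letters and not a measured binding site.

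Across all 31 genes, most levels were lower in NcoR1ΔHep, and none passed the test. All 31 passed the count filter. In the edgeR fit 28 of 31 (90.3%) had a log2 fold change of NcoR1ΔHep over flox below 0, against 46.5% of all 13205 tested genes. The median was -0.60 (quartiles -0.79 and -0.27), against 0.03 over all tested genes. A log2 fold change below -0.5 was found for 18 of 31, against 8.57% of tested genes. The 3 genes above 0 were Plvap, Maf and Egfl7. No member had an edgeR adjusted p under 0.05 (adjusted p 0.931 to 0.998), as for all tested genes, of which 0% were called. An unadjusted edgeR p under 0.05 was found for 5 members, all lower, or 16.1%, against 1.92% of tested genes lower at that level, and 0 were higher (1.43% of tested genes). These were F8, Clec14a, Ptprb, Kdr and Pecam1. DESeq2 called 0 members after adjustment (0.0379% of the edgeR-tested genes and 0.0246% of all genes with an adjusted p were called) and 6 at an unadjusted p under 0.05 (4.13% of tested genes in either direction). The plot of fold changes gives every gene with its interval.

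**Figure D1:**
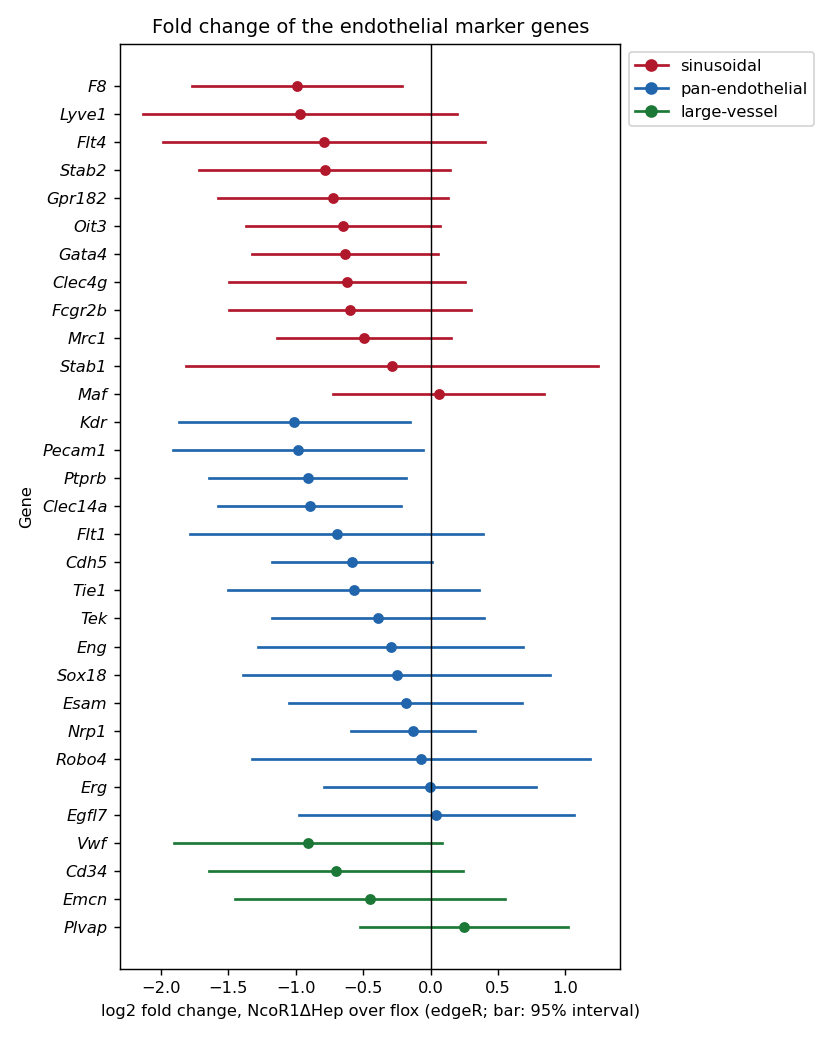
Log2 fold change of NcoR1ΔHep over flox for the 31 endothelial genes (x axis, edgeR estimate with its 95% interval), coloured by subset. Of the 31 points 28 lie below 0, and the intervals of F8, Clec14a, Ptprb, Kdr and Pecam1 lie wholly below 0 before adjustment.

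The order of the libraries was much the same from gene to gene, and it ran through both genotypes. In TMM-scaled CPM, flox 1 was the highest library for 26 of the 31 genes, where it was the highest for 16.4% of all tested genes. NcoR1ΔHep 3 was the lowest for 21 of 31, where it was the lowest for 18.8% of all tested genes. In FPKM, scaled by total counts only, the counts were 27 and 23 of 31, against 28.2% and 29.2% of all tested genes. Flox 1 exceeded flox 2 by a median of 1.03 log2 over the 31 genes, and flox 3 by 0.76 log2. NcoR1ΔHep 1 exceeded NcoR1ΔHep 3 by 0.81 log2, and NcoR1ΔHep 2 exceeded it by 0.31 log2. Over all tested genes these 4 medians were -0.01, -0.02, 0.01 and 0.03. The first 3 of these within-genotype differences were larger in size than the median of -0.60 between the genotypes, and the last was smaller. The sizes are not like for like. Each difference sets single libraries apart and involves flox 1 or NcoR1ΔHep 3, the extremes, while -0.60 compares groups of 3. The mean log2 CPM of the set, from its mean over 6 libraries, was -0.14 in flox 2 and 0.07 in flox 3. It was 0.20 in NcoR1ΔHep 1 and -0.39 in NcoR1ΔHep 2.

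Leaving out flox 1 changed the picture of the set. Without it 21 of 31 genes were lower, the median was -0.20, and 0 had an unadjusted edgeR p under 0.05, where 0.349% of all tested genes were lower at that level. Without NcoR1ΔHep 1, 30 of 31 were lower, with a median of -0.86 and 8 genes at that level, against 1.56% of tested genes. The count at that level was 12 without flox 2 (1.36% of tested genes) and 7 without flox 3 (2.76%). It was 1 of 31 without NcoR1ΔHep 2 (2.95%), a share near that of all tested genes, and 3 without NcoR1ΔHep 3 (3.49%).

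**Figure D2:**
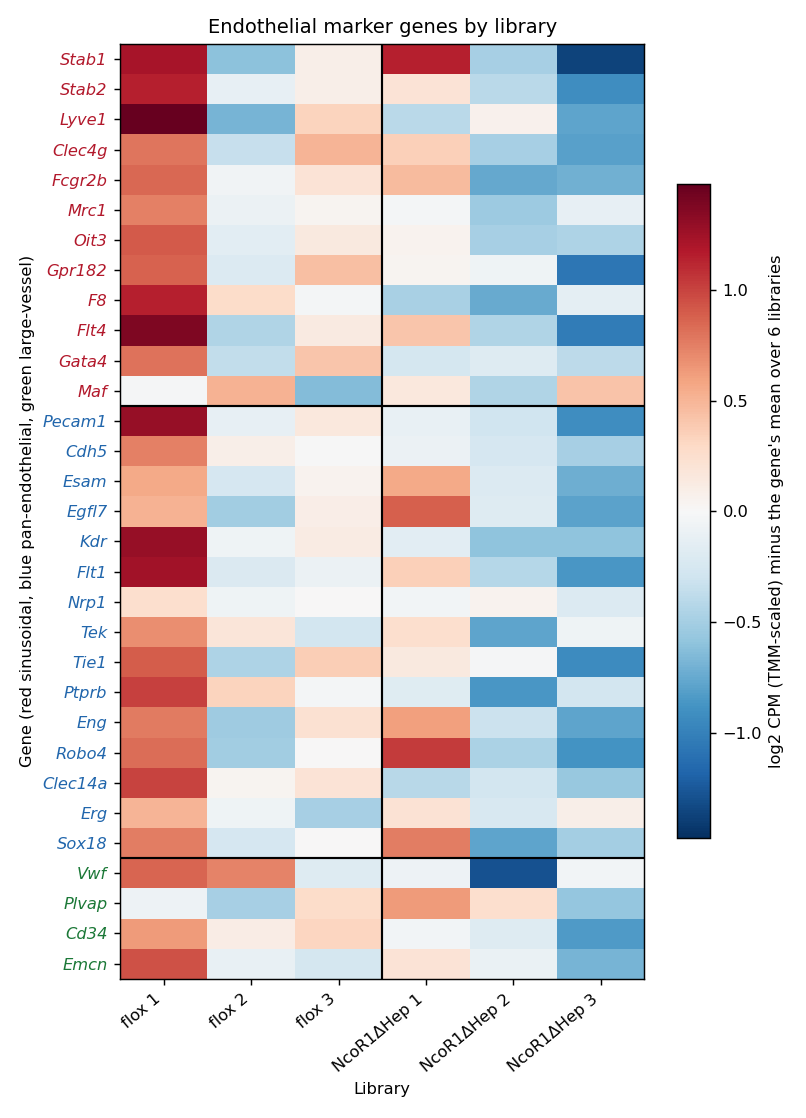
Each endothelial gene (rows, grouped by subset) in each library (columns), as log2 CPM after TMM scaling minus the gene's mean over the 6 libraries. Flox 1 is the highest library in 26 of 31 rows and NcoR1ΔHep 3 the lowest in 21.

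The groups rarely separated. In FPKM the 3 NcoR1ΔHep values were all under the lowest flox value for 3 of 31 genes (9.68%), F8, Ptprb and Clec14a, against 4.95% of tested genes. In TMM-scaled CPM this held for 6 genes (19.4%), with Kdr, Cdh5 and Cd34 added, against 5.53% of tested genes. No member was higher in every NcoR1ΔHep library than in every flox library on either scale, where 2.61% and 3.29% of tested genes were.

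Among the sinusoidal genes, Clec4g and Fcgr2b had the highest mean FPKM. Clec4g, a C-type lectin of sinusoidal cells, was at 44.8, 17.3 and 32.5 FPKM in flox 1, 2 and 3, and at 31.9, 16.8 and 12.0 FPKM in NcoR1ΔHep 1, 2 and 3. The groups overlapped, with flox 2 close to NcoR1ΔHep 2 and below NcoR1ΔHep 1. Its means were 31.5 ± 13.8 and 20.2 ± 10.4 FPKM (SD, n = 3 each), with a log2 fold change of -0.62 (SE 0.38, 95% interval -1.50 to 0.26, edgeR adjusted p = 0.931). Fcgr2b, the inhibitory Fc receptor through which these cells take up small immune complexes, was at 27.9, 12.6 and 15.9 FPKM in flox and at 20.7, 8.34 and 7.68 FPKM in NcoR1ΔHep. NcoR1ΔHep 1 lay above flox 2 and flox 3, and the log2 fold change was -0.60 (SE 0.39). Fcgr2b resembles other Fc receptor genes and is also expressed by B cells and macrophages, so its counts are less certain as an endothelial measure.

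The stabilins, large hyaluronan and waste scavengers, differed between libraries more than between genotypes. These values, like those of Lyve1, were chosen after they were seen. Stab1 was at 5.78, 1.37 and 2.34 FPKM in flox, and at 5.30, 1.61 and 0.779 FPKM in NcoR1ΔHep. Stab2 was at 6.91, 2.42 and 2.95 FPKM in flox, and at 3.47, 2.16 and 1.34 FPKM in NcoR1ΔHep. Both were highest in flox 1 and lowest in NcoR1ΔHep 3, but NcoR1ΔHep 1 reached 0.918 times flox 1 for Stab1 and 0.502 times for Stab2. The log2 fold changes were -0.29 (SE 0.66) and -0.78 (SE 0.41). That of Stab1 was -1.29 without NcoR1ΔHep 1 and 0.36 without flox 1. Lyve1, a hyaluronan receptor of sinusoidal and lymphatic endothelium, was at 10.6, 1.98 and 4.23 FPKM in flox and at 2.78, 3.63 and 1.79 FPKM in NcoR1ΔHep. Its flox libraries spanned 5.36-fold between flox 1 and flox 2, and flox 2 lay below NcoR1ΔHep 1 and NcoR1ΔHep 2.

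F8, coagulation factor VIII, which liver sinusoidal cells produce, separated the groups. It was at 2.27, 1.03 and 0.886 FPKM in flox and at 0.704, 0.554 and 0.748 FPKM in NcoR1ΔHep. The highest NcoR1ΔHep library stood below the lowest flox library by a small margin, and flox 1 stood far above the others. The means were 1.40 ± 0.759 and 0.669 ± 0.102 FPKM, with a log2 fold change of -0.99 (SE 0.34, 95% interval -1.77 to -0.21, edgeR adjusted p = 0.931). F8 is the only X-linked gene of the set. The library with Xist, NcoR1ΔHep 1, was at 0.704 FPKM, and the part of sex in the F8 difference was not tested.

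Oit3, a secreted protein used as a sinusoidal marker, was at 16.3, 6.53 and 8.49 FPKM in flox and at 8.63, 5.64 and 5.11 FPKM in NcoR1ΔHep. NcoR1ΔHep 1 lay above flox 2 and flox 3, so the groups overlapped (log2 fold change -0.65, SE 0.31, edgeR adjusted p = 0.931). Gata4, the transcription factor that specifies sinusoidal endothelium in the developing liver and is also found in stellate cells and hepatocytes, was at 6.12, 2.29 and 4.13 FPKM in flox and at 2.83, 2.81 and 2.18 FPKM in NcoR1ΔHep. Flox 2 lay below NcoR1ΔHep 1 and NcoR1ΔHep 2, and the log2 fold change was -0.63 (SE 0.30). Of the remaining genes, Mrc1 (the mannose receptor), Gpr182 (an atypical chemokine receptor) and Flt4 (a VEGF-C receptor) had log2 fold changes of -0.49, -0.72 and -0.79, and all 3 were highest in flox 1. Maf, a transcription factor also active in macrophages, did not share that order. It was at 9.10, 11.05 and 5.23 FPKM in flox and at 9.85, 6.17 and 10.01 FPKM in NcoR1ΔHep, highest in flox 2 and lowest in flox 3 (log2 fold change 0.06, SE 0.34; values chosen after they were seen).

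**Figure D3:**
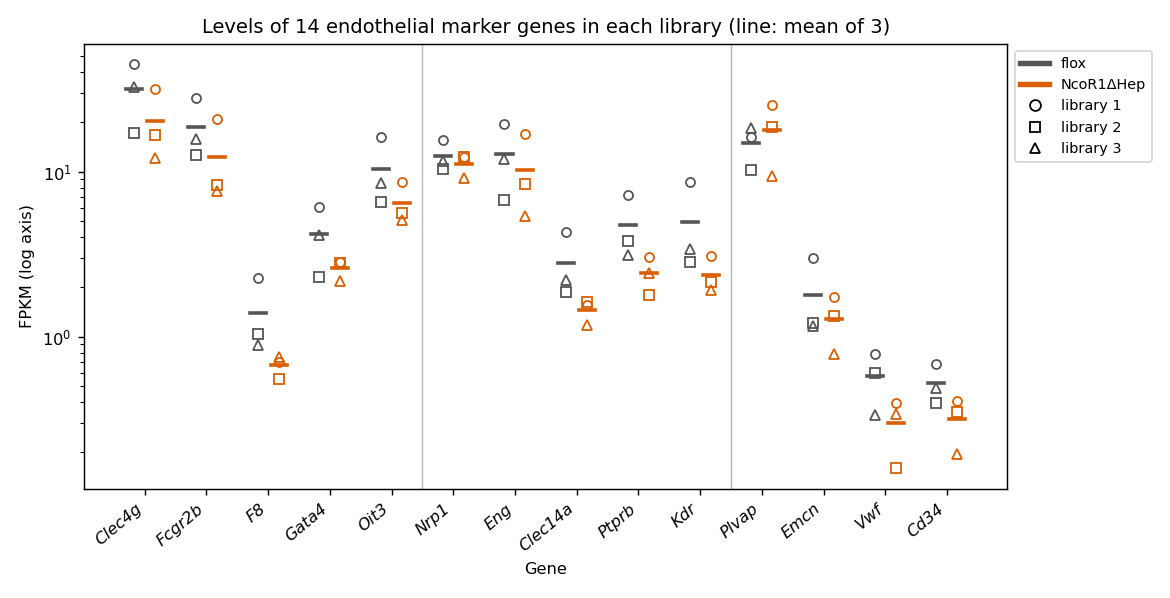
FPKM (log axis) of 14 endothelial genes in each library, with sinusoidal, pan-endothelial and large-vessel genes separated by vertical lines. Symbols mark the library number, colours the genotype, and lines the mean of 3. Flox 1 is the top flox point for all genes but Plvap, and only F8, Ptprb and Clec14a show no overlap between the colours.

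Among the pan-endothelial genes, log2 fold changes ran from -1.01 for Kdr to 0.04 for Egfl7. Kdr, the main signalling receptor for VEGF-A, was at 8.67, 2.84 and 3.41 FPKM in flox and at 3.07, 2.15 and 1.91 FPKM in NcoR1ΔHep. Only flox 2 and NcoR1ΔHep 1 overlapped in FPKM. Its log2 fold change was -1.01 (SE 0.37, 95% interval -1.87 to -0.16, edgeR adjusted p = 0.931). Flt1, the VEGF receptor that acts as a decoy, had -0.70 (SE 0.47), and Nrp1, a VEGF and semaphorin coreceptor that other liver cells also express, had -0.13 (SE 0.20). Nrp1 was at 15.5, 10.4 and 11.6 FPKM in flox and at 12.2, 12.2 and 9.12 FPKM in NcoR1ΔHep, the narrowest range between libraries in the set.

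Ptprb, the endothelial phosphatase VE-PTP, was at 7.23, 3.79 and 3.13 FPKM in flox and at 3.05, 1.80 and 2.42 FPKM in NcoR1ΔHep. The groups did not overlap, although flox 3 and NcoR1ΔHep 1 nearly met (log2 fold change -0.91, SE 0.32, edgeR adjusted p = 0.931). Its substrates and partners in the angiopoietin pathway were the receptors Tek, with -0.39 (SE 0.34), and Tie1, with -0.57 (SE 0.41). Clec14a, a lectin-like surface protein of endothelium, was at 4.29, 1.86 and 2.19 FPKM in flox and at 1.55, 1.61 and 1.17 FPKM in NcoR1ΔHep. It did not overlap and had the smallest unadjusted p of the set (log2 fold change -0.90, SE 0.30, edgeR adjusted p = 0.931). Eng, a coreceptor for BMP ligands, was at 19.6, 6.69 and 11.9 FPKM in flox and at 16.8, 8.40 and 5.42 FPKM in NcoR1ΔHep. NcoR1ΔHep 1 lay above flox 2 and flox 3. The log2 fold change was -0.30 (SE 0.43), -0.77 without NcoR1ΔHep 1 and 0.060 without flox 1.

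Junction genes split in the same way. Pecam1 had -0.98 (SE 0.40), Cdh5, which encodes VE-cadherin, -0.58 (SE 0.26), and Esam -0.18 (SE 0.38). Robo4, a guidance receptor that stabilises vessels, had -0.07 (SE 0.54) and Egfl7, a secreted matrix protein of endothelium, 0.04 (SE 0.44). Robo4 was at 2.76, 0.914 and 1.39 FPKM in flox and at 3.07, 1.03 and 0.681 FPKM in NcoR1ΔHep, and Egfl7 at 10.6, 4.34 and 7.05 against 13.2, 5.91 and 3.47 FPKM. Both were highest in NcoR1ΔHep 1 (values chosen after they were seen), and without that library their log2 fold changes were -0.86 and -0.54. The transcription factors Erg and Sox18 had -0.00 (SE 0.34) and -0.25 (SE 0.50). Exons of Egfl7 overlap those of 4 other annotated genes in GENCODE M21 over 1.62% to 7.37% of its exon bases. Overlaps with another annotated gene were also present for Clec4g (5.93%), Maf (5.34%) and Fcgr2b (2.68%). For Cd34, Gpr182, Stab2, Eng, Stab1 and Nrp1 they covered 0.818% to 2.03%. Since the strand setting is not given, the counts of all these genes may be shared.

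The large-vessel genes had low levels apart from Plvap. Vwf, the clotting factor carrier, was at 0.784, 0.605 and 0.333 FPKM in flox and at 0.394, 0.159 and 0.339 FPKM in NcoR1ΔHep, with flox 3 below 2 NcoR1ΔHep libraries (log2 fold change -0.91, SE 0.43). Cd34, a sialomucin also found on blood progenitors and fibroblasts, was at 0.683, 0.397 and 0.485 FPKM in flox and at 0.407, 0.348 and 0.194 FPKM in NcoR1ΔHep, where its lowest count was 19 (-0.70, SE 0.41). Emcn, a sialomucin of veins and capillaries, was at 3.02, 1.22 and 1.15 FPKM in flox and at 1.74, 1.33 and 0.781 FPKM in NcoR1ΔHep (-0.45, SE 0.44). Plvap, which forms the diaphragms of endothelial fenestrae and vesicles, ran the other way. It was at 16.3, 10.3 and 18.4 FPKM in flox and at 25.5, 18.6 and 9.38 FPKM in NcoR1ΔHep, so both the highest and the lowest library were NcoR1ΔHep. Its log2 fold change was 0.25 (SE 0.33), and -0.02 without NcoR1ΔHep 1.

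Per unit of length, the flox means ran from 31.5 FPKM for Clec4g through 18.8 for Fcgr2b, 14.98 for Plvap, 12.7 for Eng, 12.5 for Nrp1 and 10.4 for Oit3. At the low end stood Erg at 0.881, Flt1 at 0.640, Vwf at 0.574 and Cd34 at 0.522 FPKM. Among these genes, neighbours in the order differed by less than the larger of their SDs, for example 13.8 FPKM for Clec4g, 8.05 for Fcgr2b and 6.48 for Eng. The genes share their libraries, so these SDs do not measure how firm the order is. Clec4g was above Fcgr2b in every library, while Plvap was above Eng in flox 2 and flox 3 and below it in flox 1.

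The sinusoidal and pan-endothelial subsets were then compared. The median log2 fold change was -0.64 over 12 sinusoidal genes (11 lower), -0.39 over 15 pan-endothelial genes (14 lower) and -0.58 over 4 large-vessel genes (3 lower). The mean level of the sinusoidal subset, as log2 CPM from the mean of 6 libraries, was 0.94, -0.19 and 0.14 in flox and 0.14, -0.42 and -0.61 in NcoR1ΔHep. For the pan-endothelial subset these were 0.82, -0.16 and 0.03 in flox and 0.25, -0.38 and -0.56 in NcoR1ΔHep, and for the large-vessel subset 0.59, 0.06 and 0.03 against 0.18, -0.33 and -0.53. All 3 subsets were highest in flox 1 and lowest in NcoR1ΔHep 3, and in each the groups overlapped, with NcoR1ΔHep 1 above flox 2. The medians were -0.28, -0.067 and -0.25 without flox 1, and -0.94, -0.77 and -0.76 without NcoR1ΔHep 1.

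Within a library the sinusoidal and pan-endothelial levels stayed close together. The sinusoidal level minus the pan-endothelial level was 0.12, -0.03 and 0.12 in flox and -0.12, -0.04 and -0.05 in NcoR1ΔHep. The groups did not overlap, but flox 2 and NcoR1ΔHep 2 were nearly equal. The means were 0.07 ± 0.08 and -0.07 ± 0.04 (SD, n = 3 each), while the sinusoidal level itself ran from -0.61 to 0.94. The ratio of summed FPKM, sinusoidal over pan-endothelial, was 1.52, 1.46 and 1.58 in flox and 1.36, 1.24 and 1.43 in NcoR1ΔHep. No test was made on these subset scores, since the genes were chosen with results of these data known. The difference between the medians of the subsets was -0.26, and ran from -0.43 without NcoR1ΔHep 2 through -0.17 without NcoR1ΔHep 1 to -0.12 without flox 3.

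The level of these genes in NcoR1ΔHep 1 against flox 1 moved with base composition and with transcript length, which were not separated. This sets 1 library against 1, and the 2 also differ in genotype and in the sex-linked transcripts Xist and Ddx3y. The part of either was not tested. Each gene was given the GC content and length of 1 GENCODE transcript, the one nearest in length to the length behind its FPKM. For some genes even the nearest was far off. It had 6895 bases against 13929 for Flt1, 3645 against 9735 for Nrp1 and 3954 against 1694 for Gpr182. For others, such as Clec4g with 1242 against 1235, it was close. NcoR1ΔHep 1 minus flox 1, in log2 CPM, ran from -1.87 for Lyve1 (45.8% GC) and -1.63 for F8 (39.0% GC) to 0.37 for Egfl7 (58.5% GC) and 0.70 for Plvap (60.6% GC). Across the 31 genes, which share these 2 libraries and are not independent, Pearson's r with GC was 0.58 and Spearman's rho 0.51. With log2 transcript length they were -0.47 and -0.51. Exceptions were Gata4 (57.4% GC, -1.06) and Flt4 (56.5% GC, -0.97). The 10 genes below the median GC of tested genes (49.8%) had a median fold change of -0.80 log2 between genotypes and the 21 above it -0.58. Over all tested genes with a GC value, this median was 0.03, -0.05, 0.004 and 0.12 in 4 equal GC bins, lowest GC first.

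**Figure D4:**
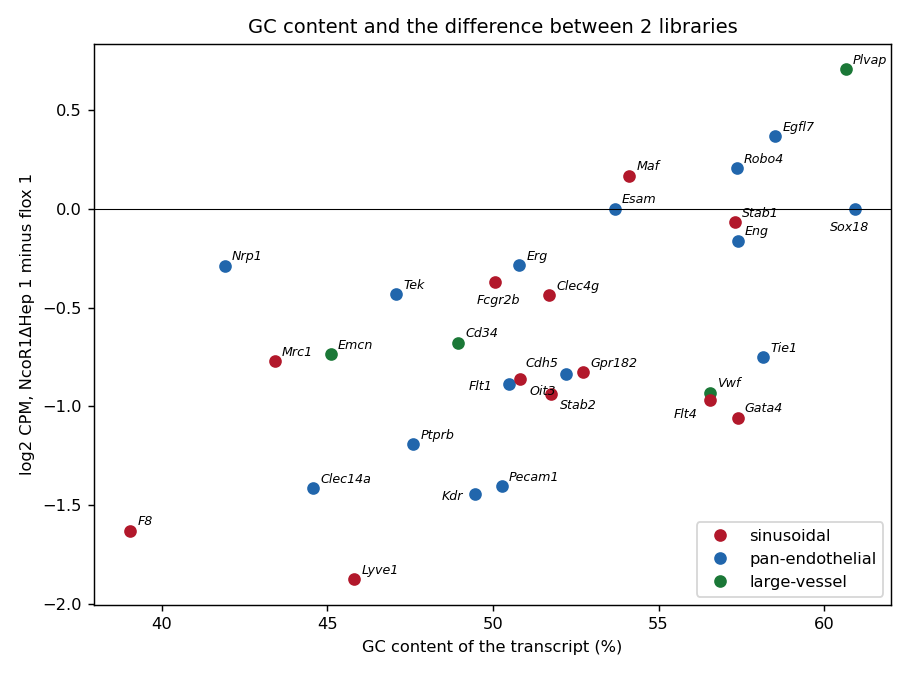
NcoR1ΔHep 1 minus flox 1 in log2 CPM (y axis) against the GC content of the transcript in percent (x axis), for the 31 endothelial genes coloured by subset. F8 and Lyve1 lie at the lower left and Egfl7 and Plvap at the upper right, with Gata4 and Flt4 low despite a high GC content.

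Across all tested genes with a value (12709 of 13205) the relation of GC to NcoR1ΔHep 1 minus flox 1 was weaker, with Pearson's r 0.16 and Spearman's rho 0.20, and with the genotype fold change they were 0.06 and 0.09. In NcoR1ΔHep 1 the median deviation from the mean of 6 libraries ran from -0.22 in the lowest of 4 equal GC bins to 0.28 in the highest, while in flox 2 it ran from 0.28 to -0.22 and in NcoR1ΔHep 3 from 0.39 to -0.21. In flox 1 it was -0.06 and -0.04. An edgeR fit with an offset for GC and length in each library, added after the data were seen, left 28 of 31 genes lower with a median of -0.57. It gave 7 genes an unadjusted p under 0.05, against 1.90% of tested genes lower at that level, and 0 an adjusted one (smallest adjusted p = 0.901). In that fit flox 1 was highest for 27 of 31 genes and NcoR1ΔHep 3 lowest for 20. Plvap was at 0.04, Egfl7 at -0.25, and the medians were -0.63 for the sinusoidal and -0.47 for the pan-endothelial subset, so their difference was -0.16. The sinusoidal minus pan-endothelial level of the libraries then overlapped between the groups.

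The mean log2 level of the endothelial genes outside the set was also highest in flox 1, in both lists. Of 8 other sinusoidal genes 7 were tested, and 6 were lower with a median of -0.73. Adam23, a disintegrin-family surface protein, was at 2.11, 1.22 and 1.37 FPKM in flox and at 0.954, 0.794 and 0.633 FPKM in NcoR1ΔHep, without overlap (log2 fold change -0.95, SE 0.25, edgeR adjusted p = 0.931). The mean log2 level of the other sinusoidal genes was 0.81 in flox 1, -0.30 in NcoR1ΔHep 3 and -0.85 in NcoR1ΔHep 2, while their summed FPKM was lowest in NcoR1ΔHep 3 (17.7, against 19.0 in NcoR1ΔHep 2). Plxnc1, a semaphorin receptor, had -0.80 (SE 0.32). Of 23 other pan-endothelial genes 22 were tested, 14 were lower and 8 higher, and the median was -0.17. Adgrl4, an adhesion receptor of endothelium, was at 5.43, 2.09 and 2.04 FPKM in flox and at 1.76, 1.40 and 0.940 FPKM in NcoR1ΔHep, also without overlap (-1.18, SE 0.38). Mmrn2, a matrix ligand of Clec14a, had -1.06 (SE 0.42). None of these passed after adjustment.

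Pathway genes around these receptors had medians between -0.20 and 0.29. VEGF and angiopoietin ligands had 2 of 7 tested genes lower (median 0.29), with Vegfb at 0.59 (SE 0.34) and Vegfc at -0.51 (SE 0.32). Notch pathway genes had 6 of 9 lower (median -0.09), with Dll1 at 1.26 (SE 0.56) and the target Hes1 at -0.76 (SE 0.57). Shear and activation genes had 6 of 9 lower (median -0.20). There Thbd, the thrombin receptor thrombomodulin, was at 1.16, 1.12 and 1.13 FPKM in flox and at 0.840, 0.678 and 0.685 FPKM in NcoR1ΔHep, without overlap (-0.61, SE 0.26), and Klf2, a shear-induced factor, had 0.62 (SE 0.42). Arterial, venous and lymphatic genes had 4 of 8 lower (median 0.03). Nr2f2, a venous identity factor also present in other liver cells, was at 3.60, 7.13 and 4.796 FPKM in flox and at 7.97, 7.30 and 15.3 FPKM in NcoR1ΔHep. It was higher without overlap in FPKM but overlapped in TMM-scaled CPM (1.01, SE 0.43), and Prox1, a lymphatic factor that hepatocytes also express, had 1.02 (SE 0.56).

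Markers of other liver cells were set beside the endothelial genes. Hepatocyte markers had 4 of 11 genes lower (median 0.03), and their summed level was 60193 to 65219 FPKM in flox and 60296 to 65249 FPKM in NcoR1ΔHep. Alb alone made up 42939.5 FPKM of that sum in flox 1. The mean log2 level of these markers was -0.23, 0.10 and 0.11 in flox and -0.10, 0.03 and 0.09 in NcoR1ΔHep. It was lowest in flox 1 and next lowest in NcoR1ΔHep 1. Kupffer cell markers, from the macrophages of the sinusoid, had 10 of 12 lower (median -0.32), with sums of 213 to 337 FPKM in flox and 140 to 357 FPKM in NcoR1ΔHep. Their mean level was 0.24, -0.10 and 0.40 in flox and -0.31, 0.43 and -0.66 in NcoR1ΔHep. NcoR1ΔHep 3 was thus lowest for both cell types, while NcoR1ΔHep 2 was highest for Kupffer markers and had the lowest sinusoidal level but one. Stellate cell markers had 2 of 13 lower (median 0.14), with sums of 145 to 165 FPKM in flox and 162 to 269 FPKM in NcoR1ΔHep. The 2 genes with the smallest p were Apob (-0.61, SE 0.51) and Apoa1 (0.37, SE 0.31) for hepatocytes, Cd68 (-0.63, SE 0.27) and Vsig4 (-0.38, SE 0.22) for Kupffer cells, and Hand2 (1.10, SE 0.49) and Ecm1 (1.01, SE 0.48) for stellate cells. The part of other cell types in the endothelial difference was not tested.

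**Figure D5:**
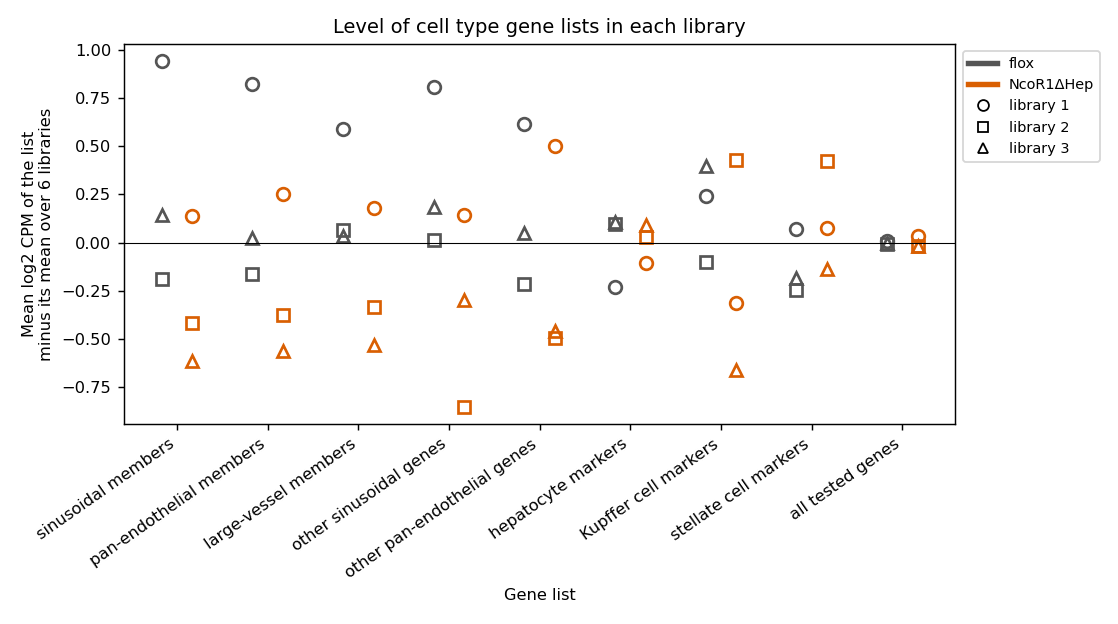
Mean log2 CPM of each gene list (x axis) minus its mean over 6 libraries (y axis), 1 symbol per library. Sinusoidal genes span -0.61 to 0.94 and hepatocyte markers -0.23 to 0.11, and the Kupffer list has its highest symbol in NcoR1ΔHep 2.

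Markers of the remaining cell types were summed in the same way. Cholangiocyte markers had 1 of 5 tested genes lower (median 0.41; sums 25.2 to 34.0 FPKM in flox and 22.1 to 102 FPKM in NcoR1ΔHep), with Cftr at 0 counts in at least 1 library. T and NK cell markers had 4 of 8 lower (median -0.03; 2.67 to 3.93 and 1.88 to 4.42 FPKM), and B cell markers 1 of 4 (median 0.26; 1.74 to 2.88 and 1.09 to 2.53 FPKM). Neutrophil markers had 3 of 3 lower (median -0.07; 3.42 to 22.5 and 6.80 to 11.9 FPKM), with Ly6g, Retnlg and Mpo at 0 in at least 1 library. Erythroid and platelet markers had 4 of 8 lower (median 0.04; 337 to 482 and 291 to 308 FPKM), with flox 1 the highest library. Mesothelial and smooth muscle markers had 3 of 3 lower (median -0.68; 4.38 to 8.04 and 3.98 to 6.28 FPKM), with Msln, Upk3b and Wt1 at 0 in at least 1 library. Among the genes with the smallest p in these lists, the log2 fold changes were 1.23 for Epcam and 0.93 for Spp1, -1.14 for Cd4 and -0.61 for Cd8a, -0.99 for Cd79a, -0.21 for S100a9 and -0.07 for S100a8, -0.52 for Hbb-bt and -0.48 for Hbb-bs, and -0.68 for Myh11 and -0.78 for Acta2. Sinusoidal genes without 4 that other liver cells also express (Gata4, Maf, Mrc1 and Fcgr2b) had 8 of 8 lower and a median of -0.75. Both values follow from the genes left out. Maf was the only sinusoidal gene above 0, and all 4 lay above the subset median of -0.64.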

How the data were processed

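The authors deposited 2 tables of the same 22599 gene symbols in 6 libraries: whole-number read counts without normalization, and FPKM. Per the labels, libraries came from total RNA with a SMARTER mRNA kit. Each deposited FPKM value was a count scaled by 1 whole length per gene (within 0.01 bases in 100% of 11237 genes with at least 20 counts in every library) and by the library's total. The submitters' processing notes name GRCm38, mm10 and hg38 without a role; which aligner, counter and strand setting made the counts was not given in the sources used here. RefSeq coordinates printed are those of the GRCm38.p6 promoter table.

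Genes were filtered with filterByExpr (minimum count 10, minimum total 15; 13205 genes), scaled by TMM and tested with edgeR 4.0.16 (R 4.3.3) by quasi-likelihood, two-sided, Benjamini-Hochberg adjusted over all tested genes, threshold 0.05. SEs came from the F statistic. List levels used log2 CPM (prior count 1). The members, subsets and lists were chosen with earlier results of these data known. Values in every library are given for the 2 most abundant and the 3 genes with the smallest p per subset and for genes opposed to their subset by over 0.2 log2, and in each other list the 2 with the smallest p are named, except 1 gene that is not reported here. Tests were tried on simulated data. Alternatives were DESeq2 1.42.0, other scalings and filters, limma 3.58.1 on voom and log2(FPKM + 1) or log2(FPKM + 0.1) values, a replicate block, and each library left out. A GC and length offset (splines with 5 degrees of freedom) was added later. Tf and cell type genes below the filter were not tested.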

Additional observations from a re-analysis of the deposited data

How the results depend on the processing

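No alternative called an endothelial gene after adjustment. DESeq2 called 5 genes in all, where edgeR and the other alternatives called 0. With only 3 libraries a group, the values lean on single ones. Leaving out one library moved the median log2 fold change from -0.94 to -0.28 for sinusoidal, -0.77 to -0.067 for pan-endothelial and -0.76 to -0.25 for large-vessel genes, and the difference of the first 2 from -0.43 to -0.12, with 0 to 0 genes called. The GC and length offsets, added after the data were seen, gave a difference of -0.16. In limma fits Flt1, Vwf and Cd34 fell under the FPKM filter and have no value, and the large-vessel median was -0.040 on log2(FPKM + 1), -0.10 on log2(FPKM + 0.1) and -0.23 on log2(FPKM + 1) without the filter; the first 2 rest on Plvap and Emcn alone.

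Single genes changed sign in 32 of the alternative values and kept it in 551. Egfl7 was at -0.058 with limma-voom, -0.063 on log2(FPKM + 1) with and without the filter, -0.085 on log2(FPKM + 0.1), -0.059 with the replicate block and -0.25 with the offsets. Erg, near 0, was at 0.00089 with RLE factors, 0.026 with upper-quartile factors, 0.027 with limma-voom, 0.0031 without a count filter, 0.00040 with a CPM filter, 0.012 on log2(FPKM + 0.1), 0.038 with the replicate block and 0.083 with the offsets. Over single left-out libraries the ranges were -1.29 to 0.36 for Stab1, -0.19 to 0.38 for Maf, -0.59 to 0.072 for Esam, -0.54 to 0.34 for Egfl7, -0.77 to 0.060 for Eng, -0.86 to 0.37 for Robo4, -0.21 to 0.31 for Erg, -0.87 to 0.11 for Sox18, -0.021 to 0.51 for Plvap and -0.67 to 0.037 for Emcn. For Stab1, Esam, Eng, Robo4 and Sox18 the lowest value came without NcoR1ΔHep 1 and the highest without flox 1. The cause was not tested.

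Same-numbered libraries did not deviate together (r over tested genes 0.02, -0.32 and -0.46), and not every library correlated best with its own number. The highest r of deviations was 0.55 for flox 2 with NcoR1ΔHep 3, then 0.28 for flox 3 with NcoR1ΔHep 2. In the correlations between whole libraries these pairs reached 0.981 and 0.984, above every pair of the same genotype. NcoR1ΔHep 1 was also closest to a flox library, flox 3 (0.944), and only flox 1 was closest to one of its own genotype. What makes libraries alike across genotypes was not tested. Deviations from the mean of 3 libraries cancel within a group, so a weak pairing could not be seen this way. The labels do not say whether the numbers pair the samples. With the replicate block 0 genes were called, and the medians were -0.65, -0.40 and -0.56 for the 3 subsets, with a difference of -0.25.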
